A study of Mus musculus with 8 samples.

Results

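Alveolar type 1 (AT1) cells of mouse lung were taken as all cells that the authors' annotation labels AT1, which gave 975 of the 41106 cells sequenced. They came from 8 Sftpc-CreERT2-mTmG mice on a C57BL/6 background, of which 4 breathed cigarette smoke (CS) over 10 months and the other 4 room air (RA). CS mice 1 to 4 gave 70, 142, 173 and 153 AT1 cells, and RA mice 1 to 4 gave 153, 96, 138 and 50. All 8 animals, controls included, carried the reporter alleles and had received tamoxifen as young adults, before exposure began. The Sftpc promoter drives the inducible Cre, so that cells with Sftpc at the time of tamoxifen switch from the membrane reporter tdTomato to eGFP, and cells that descend from them keep eGFP. The lungs were digested with enzymes, cells were separated on CD45 and put back together at a set ratio of leukocytes to other cells, and 10x libraries were made. Each of 4 sequencing lanes held 1 CS and 1 RA mouse. The mouse is the unit of every comparison, and n is 4 mice per group unless stated.

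AT1 cells are the thin, very wide epithelial cells that cover most of the alveolar surface and form, with the capillary endothelium and a shared basement membrane, the barrier across which gas diffuses. They are fragile, divide little, and are replaced mainly from alveolar type 2 (AT2) cells, the surfactant-producing cells of the same epithelium. They also signal to their neighbours, for example through vascular endothelial growth factor to capillary cells and platelet-derived growth factor to fibroblasts. The comparison of CS with RA mice asks which transcripts of these cells differ after long smoke exposure.

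Levels are given as UMIs (unique molecular identifiers, that is, counted transcript molecules) per 10,000 UMIs of a cell, averaged over the AT1 cells of a mouse, and differences between groups as CS minus RA on the scale of log2(level + 1), with the standard error (SE) of the fit. The AT1 label was borne out by its markers. Ager, which encodes the receptor for advanced glycation end products and is the classical AT1 transcript, had a mean over cells of 165, the highest of 32 cell types, with AT2 cells next at 8.19. Hopx, a homeodomain protein of AT1 cells, had 72.6, followed by the capillary cells labelled EC_capillary_A at 8.07. Rtkn2 was the most restricted, with 30.1 in AT1 cells and 0.0742 in the next type, smooth muscle. A UMI of Ager was found in 99.9% of AT1 cells, of Hopx in 99.8% and of Rtkn2 in 99.7%. Since the cells were clustered on their own transcripts, these levels describe the cells and were not tested.

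The other genes with a large ratio of AT1 cells to the next type belong to a few functions. Among 20 such genes were Akap5, which anchors protein kinase A, with 10.4 against 0.116 in the next type, and Scel, a cross-linked protein of the cell cortex, with 7.005 against 0.179. Laminin and collagen chains of the basement membrane were on this list, Lama3 (laminin alpha 3) with 7.003 against 0.572 and Col4a3 (type IV collagen alpha 3) with 14.4 against 1.44. Scnn1g, the gamma subunit of the epithelial sodium channel ENaC that draws fluid out of the alveolus, had 6.24 against 0.759. The secreted proteins were Igfbp2 (insulin-like growth factor binding protein 2), Ndnf and the semaphorin Sema3b. Igfbp2 reached 33.6 in AT1 cells and 0.0464 in AT2 cells.

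**Figure D1:**
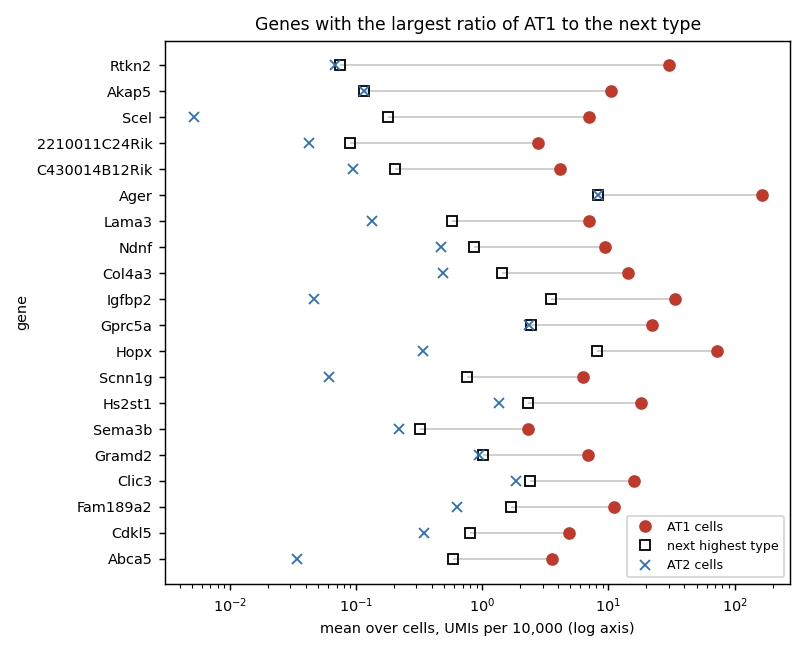
Mean level over cells of the 20 genes with the largest ratio of AT1 cells to the next highest of 32 cell types, in UMIs per 10,000 on a log axis, with AT2 cells shown beside them. Rtkn2 stands 406 times above the next type and Abca5, the last of the 20, 6.06 times.

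AT1 cells differed among themselves in how evenly they held these transcripts. Ager ran from 93.5 at the 10th to 237 at the 90th percentile of the 975 cells, and Rtkn2 from 12.5 to 49.1. Igfbp2 was far more uneven, from 2.20 to 73.6. Igfbp2 also spread widely between mice, from 7.53 in RA mouse 1 to 52.0 in CS mouse 3, whereas the means of Akap5 lay between 9.94 and 11.1.

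The median AT1 cell held 8346 to 12857 UMIs under CS and 9708 to 17293 under RA. A count of 3 UMIs over all AT1 cells of a mouse correspond to 0.0177 to 0.0368 per 10,000, and lower values are at the limit of detection. The median share of mitochondrial UMIs per AT1 cell was 2.43, 3.26, 1.79 and 1.75 in CS mice 1 to 4 and 1.63, 1.71, 1.33 and 1.53 in RA mice 1 to 4, in percent, and the groups did not overlap (exact two-sided permutation p = 0.0286, the smallest that 70 assignments allow). Summed markers of AT2 cells, endothelium, leukocytes, macrophages, lymphocytes, fibroblasts, airway cells, mesothelium and erythrocytes overlapped between the groups in AT1 cells, with exact permutation p from 0.40 to 0.886, and no marker was at 0 in AT1 cells of all mice. The largest of these sums was of the 3 airway markers, 9.84 to 73.3 under CS and 0.0491 to 49.3 under RA, where club cells have 4114. The 3 AT2 markers summed to 1.22 to 5.28 under CS and 0.988 to 11.1 under RA, against 1221 in AT2 cells. Of the AT1 barcodes, 8 were also found in another library, and none was shared by AT1 cells of 2 libraries. Sex-linked transcripts went against the labelled sex in all 4 CS libraries, while each group held 2 mice of each sex by either reading. RA mouse 1 lay apart from the other RA mice for several AT1 transcripts, and the log2 difference without it is given below for each gene whose difference of over 0.15 in size it moved by over 1.5 times, or where it is the mouse that stands apart or leaving it out ends or makes a call. Smaller differences can change sign without it.

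The share of AT1 cells among lung cells did not differ between the groups beyond the spread of the mice. As a percentage of CD45-negative cells they were 3.10, 3.62, 3.86 and 3.46 in CS mice 1 to 4 and 2.76, 1.90, 3.80 and 3.14 in RA mice 1 to 4. The means were 3.51 ± 0.320% against 2.90 ± 0.793% (SD, n = 4, exact permutation p = 0.229). The number of AT1 cells for every 100 AT2 cells was 60.3, 72.4, 75.9 and 92.7 in CS mice 1 to 4 and 45.7, 17.2, 65.4 and 70.4 in RA mice 1 to 4. The CS mouse was higher than the RA mouse of its lane in 4 of 4 lanes, but the groups overlapped, with 75.3 ± 13.4 against 49.7 ± 24.2 (SD, n = 4, exact permutation p = 0.114). The lowest ratio, in RA mouse 2, went with the highest number of AT2 cells (559). These are cells that came through digestion and sorting, and fewer cells in the tissue cannot be told apart from fewer recovered.

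The lineage reporter separated AT1 from AT2 cells. The eGFP level in AT1 cells was 3.95, 1.28, 1.27 and 3.68 in CS mice 1 to 4 and 1.51, 6.62, 0.986 and 0.434 in RA mice 1 to 4, and in AT2 cells of the same mice 60.6, 59.4, 76.2 and 73.9 in CS mice 1 to 4 and 63.3, 78.4, 82.7 and 75.3 in RA mice 1 to 4. In AT1 cells it thus came to between 0.577% and 8.45% of the AT2 level. CS and RA mice did not differ in eGFP per AT1 cell beyond their spread (2.55 ± 1.47 against 2.39 ± 2.86, SD, n = 4, exact permutation p = 0.886). RA mouse 2 alone carried most of the RA mean, and without it the RA mean was 0.976 (ratio 2.61, exact permutation p = 0.20). An eGFP level at or above the 10th percentile of AT2 cells of the same mouse was found in 18 of the 975 AT1 cells, of which 4 also held Sftpc. Per mouse these were at most 4.29% of AT1 cells under CS and 6.25% under RA.

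An eGFP count above 0, fractional counts from the removal of free RNA included, was found in 46.3 ± 4.91% of AT1 cells under CS and 39.2 ± 2.54% under RA (SD, n = 4). Counts were then rounded to whole UMIs, which sets small fractions to 0, and every cell was thinned to 2000 UMIs, which leaves out 18 CS and 9 RA cells. After both steps the share was 16.5 to 19.5% under CS and 8.0 to 12% under RA, without overlap (exact permutation p = 0.0286). The parts of rounding and of depth in this fall were not separated. The same thinned share was 4.84 to 13.8% in B cells (median 4055 UMIs), 39.7 to 50.1% in EC_capillary_A cells (median 4623 UMIs) and 47.9 to 64.4% in EC_capillary_B cells (median 3833 UMIs), which should not be labelled. The share in AT1 cells (median 10135 UMIs) was below that of both capillary types and, in CS mice, above that of B cells, and it is not read as expression of the reporter. The tdTomato transcript, which unlabelled cells keep, was also low in AT1 cells, at 0.399 ± 0.0743 against 0.366 ± 0.0337 (SD, n = 4, exact permutation p = 0.40). Over all 8 mice its mean was 0.383 in AT1, 0.0574 in AT2, 0.570 in B, 2.17 in EC_capillary_A and 2.74 in EC_capillary_B cells. The mean eGFP level was 2.47, 71.2, 0.447, 3.43 and 5.73 in the same order. Without CS mouse 2, the lowest CS value, the tdTomato groups no longer overlapped (ratio 1.18, exact permutation p = 0.0286).

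**Figure D2:**
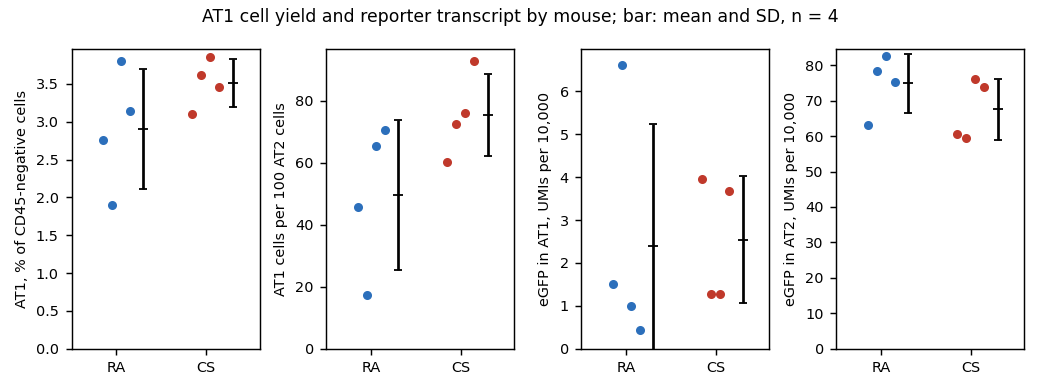
AT1 cells as a percentage of CD45-negative cells, AT1 cells per 100 AT2 cells, and the eGFP level (UMIs per 10,000) in AT1 and in AT2 cells, 1 point per mouse, with the mean and SD of 4 mice. The CS and RA points overlap in every panel, and eGFP in AT1 cells does not exceed 6.62 while in AT2 cells it is at least 59.4.

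In AT1 cells of CS mice the metallothionein Mt1, 6 mitochondrially encoded transcripts, the growth factor Tgfb2 and the clock gene Dbp were higher, and the glucocorticoid-responsive genes Tsc22d3 and Zbtb16 and 7 cytosolic chaperones were lower. The hour at which each lung was taken is not known here, and its part in these differences was not tested. For differences between groups, log2(level + 1) was compared with limma over all genes tested. Of 8950 genes found in at least 10% of AT1 cells of either group, 213 (2.38%) had an adjusted p under 0.05, 123 higher in CS (1.37%) and 90 lower (1.01%). In 205 of the 213 the 4 CS and the 4 RA mice did not overlap, and of all genes tested 977 (10.9%) did not overlap. The 213 were picked on these same values, so nothing is read from the contrast. The median difference over all genes was 0.00. With the lane as a term 179 genes were called, 156 of them among the 213, and with sex as the transcripts give it 262, which held all 213. With 20 cells drawn per mouse 22 genes were called, of which 21 were among the 213, and with no filter on genes 29. Of the 213 genes, 21 passed the 10% filter only through the group where they were higher. Leaving out 1 of the CS mice gave 100 to 110 genes and leaving out 1 of the RA mice 144 to 205. Of the 49 called genes taken by the naming rule, 34 lost their call with no filter and 30 with 20 cells per mouse, and the 13 that were called under both are Btg2, Cnn3, Dbp, Errfi1, Hsp90ab1, Mt1, Nt5e, Pxdc1, Tgfb2, Tsc22d3, Zbtb16, mt-Cytb and mt-Nd1. Without RA mouse 1 the calls of Ahsa1 (-0.30), Arntl (-0.16), Foxa2 (0.30), Itgb6 (0.45), Stip1 (-0.22), Tgfbr2 (0.32) and mt-Co1 (0.50) were lost, the values being log2 differences and the adjusted p from 0.0503 for Foxa2 to 0.0931 for Ahsa1.

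Mt1 showed the largest difference of any gene tested. Mt1 and Mt2 encode metallothioneins, small cysteine-rich proteins that bind zinc and copper, and lie next to each other on chromosome 8 of GRCm38 (Mt1 at chr8:94179082-94180327 and Mt2 at chr8:94172664-94173568). The level of Mt1 was 2.697, 3.19, 2.90 and 2.96 in CS mice 1 to 4 and 0.191, 0.0859, 0.0980 and 0.0719 in RA mice 1 to 4. Every CS mouse was over 10 times above every RA mouse. The mean was 2.94 ± 0.204 against 0.112 ± 0.0541 (SD, n = 4). This is a 26.3-fold difference, or 1.82 (SE 0.0673, adjusted p = 1.14e-10) on the log2 scale. A UMI of Mt1 was found in 64.7% of AT1 cells under CS and 11.5% under RA. Its neighbour Mt2 had 0.202, 0.343, 0.340 and 0.466 in CS mice 1 to 4 and 0.0463, 0.0436, 0.0550 and 0.00899 in RA mice 1 to 4. It too did not overlap between the groups, with a log2 difference of 0.36 (SE 0.0497, adjusted p = 0.00124). RA mouse 4 was under the level of 3 UMIs for Mt2. A UMI of Mt2 was found in 21.2% of AT1 cells under CS and 4.87% under RA, so that it passed the 10% filter only through the CS mice, and with no filter or 20 cells per mouse it was not called (adjusted p = 0.0510 and 0.446). With each mouse left out both calls held, the highest adjusted p being 4.72e-09 for Mt1 and 0.00580 for Mt2.

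In AT2 cells Mt1 stood at 8.24 under CS and 4.26 under RA, which is above AT1 cells in both groups. EC_capillary_A cells held 0.161 under CS and 0.151 under RA, and in EC_capillary_B cells 0.200 under CS and 0.231 under RA. Capillary cells of both groups were thus below every CS mouse's AT1 cells. A test of AT1 against AT2 cells, on the log2 differences, gave 1.001 (SE 0.217, adjusted p = 0.0657) for Mt1 and -0.19 (SE 0.149, adjusted p = 0.649) for Mt2, neither past the threshold.

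Both promoters are shown because metallothionein genes are the textbook targets of the metal-responsive factor MTF1, which binds metal response elements. The 300 bases around the listed start, 250 before and 50 after it (RefSeq, GRCm38.p6) were searched on both strands for TGCACNC or TGCGCNC, and matches are in capitals. The Mt1 window is chr8:94178839-94179138, plus strand, and the Mt2 window is chr8:94172368-94172667, plus strand.
Mt1: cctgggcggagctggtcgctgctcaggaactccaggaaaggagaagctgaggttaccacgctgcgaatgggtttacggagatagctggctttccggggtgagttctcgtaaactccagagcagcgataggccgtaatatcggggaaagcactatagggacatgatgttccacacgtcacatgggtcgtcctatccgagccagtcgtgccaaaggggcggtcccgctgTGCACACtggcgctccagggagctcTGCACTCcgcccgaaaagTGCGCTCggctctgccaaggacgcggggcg
Mt2: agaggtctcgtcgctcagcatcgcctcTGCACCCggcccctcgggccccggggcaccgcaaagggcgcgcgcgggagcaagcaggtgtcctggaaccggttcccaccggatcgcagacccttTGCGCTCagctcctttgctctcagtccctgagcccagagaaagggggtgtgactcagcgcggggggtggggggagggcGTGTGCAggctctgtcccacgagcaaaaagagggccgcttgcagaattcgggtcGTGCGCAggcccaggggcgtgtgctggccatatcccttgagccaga
There were 3 matches in Mt1 and 4 in Mt2. Of all 32851 promoter windows of this length, 25.7% held at least 1 match and 1.97% held 3 or more. All windows were also searched, on both strands, for the glucocorticoid response element ACANNNTGT, found in 6.85% of all windows. Of the 6 called glucocorticoid genes described next, 5 had a window, and of these Mt1 alone held a match. The E-box CACGTG, at which clock factors bind (its own reverse complement), was in 1 of the 3 called clock-output genes (Bhlhe41) and in 7.15% of all windows. A match is a run of letters and was not tested as a binding site.

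Of 11 glucocorticoid genes, 10 targets that rise with cortisol-like hormones in many tissues and the receptor Nr3c1, 6 were called in AT1 cells, against 2.38% of all genes. Of the 6, 1 is Mt2, which passed the filter only through the CS mice. The 4 lower in CS mice were Tsc22d3, Zbtb16, Errfi1 and Klf9, and the 2 higher ones were the metallothioneins above, which also answer to metals. The median difference of the list was -0.00258. Tsc22d3, which encodes the anti-inflammatory protein GILZ and lies at chrX:140539528-140600659, had 1.45, 1.38, 1.68 and 1.59 in CS mice 1 to 4 and 8.02, 4.01, 4.39 and 3.99 in RA mice 1 to 4. All CS mice were below all RA mice. RA mouse 1 was the highest, and the log2 difference of -1.23 (SE 0.151, adjusted p = 0.000657) became -1.02 without it (adjusted p = 3.13e-06). Zbtb16, the zinc finger protein PLZF at chr9:48654297-48836222, had 0.570, 0.586, 0.545 and 0.743 in CS mice 1 to 4 and 3.64, 2.58, 2.96 and 1.74 in RA mice 1 to 4. Its mean was 0.611 ± 0.0897 against 2.73 ± 0.794 (SD, n = 4), which on the log2 scale is -1.19 (SE 0.120, adjusted p = 0.000177). A Zbtb16 UMI was found in 34.7% of AT1 cells under CS and 83.0% under RA.

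Errfi1 encodes MIG6, a feedback inhibitor of the epidermal growth factor receptor. Its level was 2.43, 1.95, 2.90 and 2.93 in CS mice 1 to 4 and 5.96, 5.60, 4.85 and 6.69 in RA mice 1 to 4, again without overlap (log2 difference -0.93, SE 0.115, adjusted p = 0.000657). Klf9, a Krüppel-like transcription factor, differed less, with 2.90 ± 0.457 against 4.40 ± 0.472 (SD, n = 4) and a log2 difference of -0.47 (adjusted p = 0.0289). That call was lost without CS mouse 2, 3 or 4 or without RA mouse 2 or 4 (adjusted p up to 0.0914). Fkbp5, the FK506-binding co-chaperone of the receptor, had a log2 difference of -0.44 (adjusted p = 0.319), which came to -0.10 without RA mouse 1. The receptor gene Nr3c1 had one of 0.19 (adjusted p = 0.340), and 0.10 without RA mouse 1. Per1 (period 1) at 0.07, the kinase gene Sgk1 at 0.12 (0.24 without RA mouse 1) and Cebpd at -0.00258 did not pass the test. Klf15, a transcription factor outside the list that also responds to glucocorticoids, had 0.255, 0.413, 0.455 and 0.417 in CS mice 1 to 4 and 1.87, 1.15, 1.22 and 1.05 in RA mice 1 to 4 and a log2 difference of -0.74 (SE 0.0916, adjusted p = 0.000657).

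Of 18 cytosolic chaperones, all tested, 7 were called lower in CS mice and none higher, against 1.01% of all genes called lower, and the median difference was -0.22. Hspa8, the constitutive HSC70 that folds new and damaged proteins and lies at chr9:40800984-40810087, had 5.10, 4.58, 5.86 and 4.12 in CS mice 1 to 4 and 11.6, 7.42, 11.3 and 13.9 in RA mice 1 to 4. The highest CS mouse was below the lowest RA mouse, and the mean was 4.92 ± 0.750 against 11.1 ± 2.69 (SD, n = 4, log2 difference -1.01, SE 0.155, adjusted p = 0.00249). Hsp90ab1, the constitutive HSP90 beta, had 8.38, 10.4, 10.6 and 9.55 in CS mice 1 to 4 and 21.7, 15.02, 18.4 and 21.0 in RA mice 1 to 4, also without overlap (log2 difference -0.89, SE 0.133, adjusted p = 0.00241). Hspb1, the small heat shock protein HSP27, had 1.67, 2.25, 2.32 and 2.55 in CS mice 1 to 4 and 6.65, 3.06, 5.34 and 5.81 in RA mice 1 to 4. Its log2 difference was -0.93 (SE 0.158, adjusted p = 0.00486).

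The other 4 called chaperones are partners of HSP70 and HSP90. Dnaja1, a J-domain partner of HSP70, had 0.683 ± 0.155 against 1.33 ± 0.289 (SD, n = 4) and a log2 difference of -0.47 (adjusted p = 0.0116), which was lost without CS mouse 4 (adjusted p = 0.0502). Ahsa1, which activates HSP90, had -0.32 (adjusted p = 0.0475), with groups that overlapped. Stip1, which links HSP70 to HSP90, had -0.27 (adjusted p = 0.0375), and the HSP90 partner Chordc1 -0.25 (adjusted p = 0.0390). The call of Chordc1 was lost when any mouse but RA mouse 1 was left out (adjusted p up to 0.113), with the lane as a term (adjusted p = 0.0701), with no filter on genes (adjusted p = 0.146), with 20 cells per mouse (adjusted p = 0.867) and without the 10% of cells with most UMIs (adjusted p = 0.0546). The call of Ahsa1 was lost without CS mouse 1, 3 or 4 or RA mouse 1, 3 or 4 (adjusted p up to 0.147), and that of Stip1 when any mouse but RA mouse 2 was left out (adjusted p up to 0.112). Ahsa1 was also lost with a pseudocount of 0.1 (adjusted p = 0.0509), under quantile normalization (adjusted p = 0.0562) and without the 10% of cells with most UMIs (adjusted p = 0.0805), and Stip1 from summed counts (adjusted p = 0.106). Among the members not called the log2 differences were -0.17 for Hspa1a (adjusted p = 0.622, and -0.05 without RA mouse 1), 0.02 for Hspa1b (adjusted p = 0.946) and -0.05 for Dnajb1 (adjusted p = 0.763). None of 15 chaperones of the endoplasmic reticulum was called, against 2.38% of all genes, and their median was -0.08. Hspa5, the luminal HSP70 known as BiP, had 6.17, 5.60, 5.401 and 4.28 in CS mice 1 to 4 and 5.56, 6.57, 5.79 and 7.69 in RA mice 1 to 4.

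Hspa8 had a lower mean in CS mice in neighbouring types too, with 5.96 under CS and 10.0 under RA in AT2 cells, 3.49 under CS and 7.80 under RA in EC_capillary_A cells and 4.18 under CS and 9.05 under RA in EC_capillary_B cells. It was not called in AT2 cells, and capillary cells were not tested. None of the 18 chaperones passed the test of AT1 against AT2 cells. Only 0.892% of all genes passed it, so nothing is read from this for so short a list. The promoter of Hspb1 is shown because heat shock elements, at which the factor HSF1 binds, are the best known control of these genes. It is the window chr5:135887669-135887968 (GRCm38.p6, plus strand), searched on both strands for GAANNTTC or TTCNNGAA.
Hspb1: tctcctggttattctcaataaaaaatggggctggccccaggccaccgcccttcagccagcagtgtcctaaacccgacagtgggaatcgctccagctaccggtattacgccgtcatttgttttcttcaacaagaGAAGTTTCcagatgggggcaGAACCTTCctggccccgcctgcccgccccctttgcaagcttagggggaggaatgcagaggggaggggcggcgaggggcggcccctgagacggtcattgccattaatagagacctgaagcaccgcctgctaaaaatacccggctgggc
The capitals mark 2 matches. Of the 7 called chaperones, 5 had a window in the table and 3 of these held a match (Hspb1, Dnaja1 and Chordc1), while 15.1% of all windows held at least 1 and 1.96% held 2 or more.

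Of 13 listed transcripts of the mitochondrial genome, 11 were tested and 6 were called, all higher in CS mice, against 1.37% of all genes called higher, with a median difference of 0.57. Of mt-Cytb, the cytochrome b of complex III, there were 70.0, 64.3, 67.3 and 62.1 in CS mice 1 to 4 and 35.6, 42.5, 42.5 and 35.5 in RA mice 1 to 4. The lowest CS mouse was above the highest RA mouse (log2 difference 0.75, SE 0.115, adjusted p = 0.00249). Of mt-Nd4, a subunit of complex I, there were 42.1, 37.7, 35.7 and 33.6 in CS mice 1 to 4 and 18.8, 23.7, 23.8 and 21.9 in RA mice 1 to 4 (log2 difference 0.73, SE 0.124, adjusted p = 0.00476). Other complex I subunits were also higher, mt-Nd5 at 0.73 (adjusted p = 0.00291), mt-Nd1 at 0.72 (adjusted p = 0.00353) and mt-Nd2 at 0.61 (adjusted p = 0.00887). The sixth, mt-Co1 of complex IV, had 0.57 (adjusted p = 0.0383) and lost its call with the lane as a term (adjusted p = 0.0575) and without CS mouse 1, 2 or 3 or RA mouse 1, 2 or 4 (adjusted p up to 0.110). Among members not called the log2 differences were -0.01 for mt-Co2 (adjusted p = 0.974), 0.11 for mt-Co3 (adjusted p = 0.825) and 0.03 for mt-Nd6 (adjusted p = 0.597). Their means over AT1 cells were low, at 0.227, 0.423 and 0.105, against 53.7 for mt-Cytb. A log2 difference understates the change at such levels, but can still show one. Also not called were mt-Atp6 at 0.48 (adjusted p = 0.283) and mt-Atp8 at 0.37 (adjusted p = 0.0627), with means of 0.336 and 0.924. The share of mitochondrial UMIs per cell, on which the authors had filtered cells, overlaps with these transcripts and is not taken as separate evidence. Its means were 2.31% against 1.55%, and its part in the other results was not tested. In EC_capillary_A cells mt-Cytb was 21.1 under CS and 21.0 under RA, and in AT2 cells 69.8 under CS and 65.0 under RA.

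Growth factor ligands and guidance molecules are the signals that AT1 cells send to the alveolar wall. Of 17 tested, 16 had a higher mean in CS mice, with a median of 0.25 against 0.00 over all genes, and 3 were called, all higher (1.37% of all genes). Tgfb2, transforming growth factor beta 2 at chr1:186622792-186705989, had 2.30, 1.99, 2.31 and 2.45 in CS mice 1 to 4 and 0.571, 1.08, 0.963 and 1.27 in RA mice 1 to 4. All CS mice were above all RA mice, at 2.26 ± 0.194 against 0.972 ± 0.297 (SD, n = 4), or 2.33-fold. On the log2 scale they differed by 0.74 (SE 0.0997, adjusted p = 0.00124), and a Tgfb2 UMI was found in 76.0% of AT1 cells under CS and 54.3% under RA. AT2 cells held 0.0310 under CS and 0.0213 under RA, EC_capillary_A cells 0.0214 under CS and 0.0202 under RA and alveolar fibroblasts 0.389 under CS and 0.251 under RA. By the mean over cells AT1 ranked 3 of 32 types for Tgfb2.

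Pdgfb, the B chain of platelet-derived growth factor, had 2.28, 2.59, 2.02 and 1.77 in CS mice 1 to 4 and 0.474, 1.33, 1.01 and 1.59 in RA mice 1 to 4 (log2 difference 0.62, SE 0.137, adjusted p = 0.0281). Sema3e, a semaphorin that guides vessels through plexin D1, had 16.8, 16.2, 15.2 and 18.4 in CS mice 1 to 4 and 8.39, 11.1, 13.1 and 12.1 in RA mice 1 to 4 (log2 difference 0.55, SE 0.135, adjusted p = 0.0430). Neither overlapped between the groups. The call of Pdgfb was lost without CS mouse 1, 2 or 3 or RA mouse 3 (adjusted p up to 0.0872), and that of Sema3e when any mouse but RA mouse 1 or 3 was left out (adjusted p up to 0.120) and with the lane as a term (adjusted p = 0.0590) or without the 10% of cells with most UMIs (adjusted p = 0.0596). Among the ligands that did not pass, Vegfa, the main growth factor of the capillaries, had 34.6, 28.1, 27.8 and 28.2 in CS mice 1 to 4 and 13.97, 24.6, 24.6 and 28.3 in RA mice 1 to 4. Its log2 difference was 0.40 (adjusted p = 0.255), with RA mouse 1 lowest of all, and 0.19 without RA mouse 1 (adjusted p = 0.429). Pdgfa, the A chain on which alveolar myofibroblasts depend, had 7.82 ± 0.929 against 5.31 ± 1.90 (SD, n = 4, log2 difference 0.54 (adjusted p = 0.153), and 0.28 without RA mouse 1). The semaphorin genes Sema3a at 0.45 (adjusted p = 0.0586) and Sema3b at 0.32 (adjusted p = 0.0810) and Ntn4 (netrin 4) at 0.38 (adjusted p = 0.0627) came close to the threshold with groups that did not overlap. The Wnt ligands Wnt7a at 0.20 and Wnt3a at 0.25, Bmp4 at 0.24 (0.11 without RA mouse 1), Cxcl16 at 0.15, Fgf18 at 0.09, Fgf1 at 0.05, Tgfb1 at 0.03 and Shh at 0.03 had adjusted p of 0.203 or more, as did Hbegf, the 1 ligand with a lower mean in CS mice (-0.05).

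On the receiving side, 1 of 20 receptors tested was called, against 2.38% of all genes, a share too close to read anything from. Tgfbr2, the type II receptor for transforming growth factor beta, had 3.10, 3.18, 3.29 and 3.11 in CS mice 1 to 4 and 1.52, 2.48, 2.15 and 2.42 in RA mice 1 to 4, without overlap (log2 difference 0.42, SE 0.101, adjusted p = 0.0410). The call was lost with the lane as a term (adjusted p = 0.0509) and when any mouse but RA mouse 2 or 4 was left out (adjusted p up to 0.1001), and under quantile normalization (adjusted p = 0.0569). The type I receptor Tgfbr1 had a log2 difference of -0.01 (adjusted p = 0.913). Itgb6, the beta 6 integrin chain that with alpha v releases active transforming growth factor beta from its latent form, had 5.84, 4.17, 4.67 and 6.07 in CS mice 1 to 4 and 2.09, 3.18, 3.25 and 4.13 in RA mice 1 to 4. Its log2 difference was 0.58 (SE 0.143, adjusted p = 0.0437), and the call was kept only when CS mouse 2 or RA mouse 4 was the mouse left out (adjusted p otherwise up to 0.127). It was also lost under quantile normalization (adjusted p = 0.0562) and without the 10% of cells with most UMIs (adjusted p = 0.0638). Itgb6 was the 1 called member of 20 tight junction and adhesion genes and of 18 genes of the transitional state between AT2 and AT1 cells, against 2.38% of all genes. The keratin Krt8, a usual marker of that state, had a log2 difference of -0.21 (adjusted p = 0.343), and -0.12 without RA mouse 1.

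**Figure D3:**
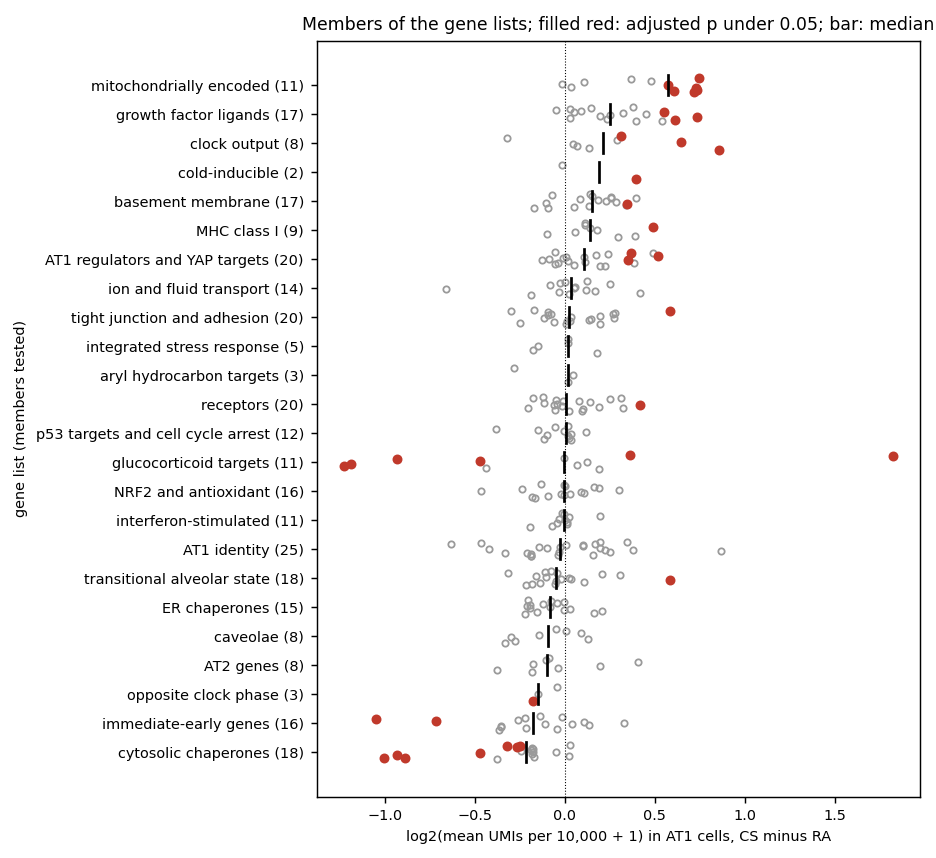
Log2 difference between CS and RA mice in AT1 cells for each tested member of 24 gene lists, ordered by the median (bar), with members past an adjusted p of 0.05 filled in red. Mitochondrially encoded genes have the highest median (0.57) and cytosolic chaperones the lowest (-0.22), while the glucocorticoid genes split in both directions.

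Among 20 tested AT1 regulators and targets of the Hippo effector YAP, 3 were called, all higher in CS mice, against 1.37% of all genes. Amotl2, an angiomotin that holds YAP at junctions and is itself a YAP target, had 3.47, 3.14, 3.01 and 3.14 in CS mice 1 to 4 and 1.52, 1.96, 2.24 and 2.01 in RA mice 1 to 4 (log2 difference 0.52, SE 0.0909, adjusted p = 0.00617). Ankrd1, a nuclear ankyrin-repeat protein and YAP target, had 1.24, 1.14, 1.35 and 1.47 in CS mice 1 to 4 and 0.595, 0.857, 0.736 and 0.943 in RA mice 1 to 4 (log2 difference 0.37, SE 0.0752, adjusted p = 0.0169), and lost its call without CS mouse 3 or 4 (adjusted p up to 0.0579). Foxa2, a forkhead factor of lung epithelium, had 1.57, 1.57, 1.56 and 1.37 in CS mice 1 to 4 and 0.751, 1.03, 1.19 and 0.933 in RA mice 1 to 4 (log2 difference 0.35, SE 0.0764, adjusted p = 0.0238), and lost it without CS mouse 1, 2 or 3 or RA mouse 1 or 4 (adjusted p up to 0.0734) and with 20 cells per mouse (0.23, adjusted p = 0.689). None of the 3 overlapped between groups. Ccn2, another YAP target, had 4.13 ± 0.354 against 2.71 ± 0.791 (SD, n = 4) and missed the threshold with all mice (log2 difference 0.49, adjusted p = 0.0569) but was called at 0.60 without RA mouse 1 (adjusted p = 0.00894), while the threshold was also missed by Ccn1 at 0.24 (adjusted p = 0.309) and the YAP partner Tead1 at 0.38 (adjusted p = 0.113). The transcripts of YAP and TAZ themselves had log2 differences of 0.05 for Yap1 and -0.05 for Wwtr1 (adjusted p of 0.706 and 0.834). Nkx2-1, the lung lineage factor, had 0.20 (adjusted p = 0.313).

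The basement membrane list had 17 genes tested and 1 called, against 2.38% of all genes, which is likewise no result about the list. Col4a6, the alpha 6 chain of type IV collagen, had 0.687, 0.587, 0.860 and 0.868 in CS mice 1 to 4 and 0.311, 0.401, 0.471 and 0.324 in RA mice 1 to 4, a log2 difference of 0.34 (SE 0.0660, adjusted p = 0.0116). The groups did not overlap, but with 20 cells per mouse the difference was no longer seen (0.02, adjusted p = 0.990), and with no filter it was not called (adjusted p = 0.108). Col4a5, its neighbour on the X chromosome, had 5.10 ± 0.334 against 3.82 ± 0.475 (SD, n = 4) without overlap but was not called (log2 difference 0.34, adjusted p = 0.0881). The alpha 3 and alpha 4 chains of the gas exchange surface were not called, with 14.8 ± 1.88 against 14.4 ± 2.63 for Col4a3 (SD, n = 4, log2 difference 0.05, adjusted p = 0.890) and 16.4 ± 1.57 against 14.9 ± 1.43 for Col4a4 (SD, n = 4, log2 difference 0.13, adjusted p = 0.603). Hspg2, which encodes the heparan sulfate proteoglycan perlecan, had 0.40 (adjusted p = 0.0829) and 0.29 without RA mouse 1 (adjusted p = 0.138), and Lama5 (laminin alpha 5) 0.28 (adjusted p = 0.0566).

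None of 25 AT1 identity genes was called, against 2.38% of all genes, and 7 had an unadjusted p under 0.05, against 1576 of the 8950 genes tested (17.6%). Their median difference was -0.03. Ager had 155, 168, 154 and 138 in CS mice 1 to 4 and 200.2, 180.4, 159.9 and 161 in RA mice 1 to 4 (log2 difference -0.19 (adjusted p = 0.382), and -0.12 without RA mouse 1). Hopx had 67.6 ± 8.09 against 78.3 ± 16.7 (SD, n = 4, log2 difference -0.19 (adjusted p = 0.561), and -0.10 without RA mouse 1), and Pdpn, the surface protein podoplanin, 9.28 ± 0.646 against 8.26 ± 1.04 (SD, n = 4, log2 difference 0.16, adjusted p = 0.512). Rtkn2 had 28.9, 26.8, 30.3 and 34.0 in CS mice 1 to 4 and 19.7, 36.2, 35.3 and 34.96 in RA mice 1 to 4, with RA mouse 1 alone well below the rest. Its log2 difference was -0.04 (adjusted p = 0.937) and -0.24 without RA mouse 1 (adjusted p = 0.263). Igfbp2 had 33.4, 43.3, 52.0 and 36.0 in CS mice 1 to 4 and 7.53, 34.4, 26.9 and 30.9 in RA mice 1 to 4, and its log2 difference of 0.87 (SE 0.325, adjusted p = 0.176) was not called and came to 0.40 without RA mouse 1 (adjusted p = 0.162). Of the 25 genes 5 did not overlap between the groups, against 10.9% of all genes, and missed the threshold. On the lower side these were Cyp4b1 at -0.63 (adjusted p = 0.117) and -0.36 without RA mouse 1, Prdx6 (peroxiredoxin 6) at -0.47 (adjusted p = 0.105) and Sec14l3 at -0.42 (adjusted p = 0.112), and on the higher side Gprc5a at 0.38 (adjusted p = 0.126) and Ptprf at 0.35 (adjusted p = 0.0790), which had 0.29 without RA mouse 1 (adjusted p = 0.123).

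With all mice, none of the 14 ion and fluid transport genes passed, against 2.38% of all genes, and nothing is read from this for so short a list. Scnn1a, the alpha subunit of ENaC, came closest, with 12.9, 11.4, 10.5 and 12.7 in CS mice 1 to 4 and 9.41, 8.54, 7.76 and 8.78 in RA mice 1 to 4 and a log2 difference of 0.42 (adjusted p = 0.0614), and was called at 0.46 without RA mouse 1 (adjusted p = 0.0299). The groups did not overlap, and the test of AT1 against AT2 cells gave 0.56 (SE 0.0971, adjusted p = 0.0294). Scnn1b and Scnn1g, the other ENaC subunits, had -0.03 and 0.17, and the water channel Aqp5 -0.19 (adjusted p = 0.485). Atp1b1, a subunit of the sodium pump, had 0.319, 0.206, 0.147 and 0.331 in CS mice 1 to 4 and 5.32, 0.629, 0.297 and 0.141 in RA mice 1 to 4 (log2 difference -0.66, adjusted p = 0.347). RA mouse 1 carried this difference, which was -0.10 without RA mouse 1 (adjusted p = 0.638). None of 8 caveola genes was called, and Cav1, which encodes caveolin 1, had 11.7 ± 1.80 against 14.9 ± 1.87 (SD, n = 4, log2 difference -0.33, adjusted p = 0.197). The other junction genes, among them Cldn18 at 0.19 (adjusted p = 0.590) and -0.01 without RA mouse 1, and Cdh1 (E-cadherin) at 0.27 (adjusted p = 0.189), were not called either.

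Of 8 clock-output genes tested 3 were called, all higher in CS mice (1.37% of all genes), and of 3 genes of the opposite phase 1, lower (1.01% of all genes). The median difference of the 8 was 0.21. Those not called were Nr1d2 at 0.29 (adjusted p = 0.0793), Tef at 0.14, Per1 at 0.07, Per2 at 0.05 and Cry2, the 1 that was lower, at -0.32 (adjusted p = 0.0658). Of the 8, 2 passed the test of AT1 against AT2 cells, against 0.892% of all genes. Dbp, a factor whose transcript swings strongly over the day, had 1.65, 1.43, 0.880 and 0.919 in CS mice 1 to 4 and 0.0124, 0.256, 0.216 and 0.383 in RA mice 1 to 4. RA mouse 1 was under the level of 3 UMIs, and no CS mouse overlapped the RA mice (log2 difference 0.86, SE 0.109, adjusted p = 0.000657). Nr1d1, the repressor REV-ERB alpha, had 1.84, 1.67, 1.38 and 1.48 in CS mice 1 to 4 and 0.166, 0.614, 0.866 and 1.12 in RA mice 1 to 4 (log2 difference 0.65, SE 0.134, adjusted p = 0.0192), and lost its call without CS mouse 1 or 2 (adjusted p up to 0.0666). Bhlhe41, a repressor also known as DEC2, had 0.387 ± 0.0828 against 0.116 ± 0.0363 (SD, n = 4, log2 difference 0.31 (adjusted p = 0.00249), and 0.29 without RA mouse 1). Arntl, which encodes the activator BMAL1 and peaks when Dbp is low, had 0.0276, 0.0213, 0.0474 and 0.0650 in CS mice 1 to 4 and 0.208, 0.0957, 0.253 and 0.147 in RA mice 1 to 4 (log2 difference -0.18, SE 0.0388, adjusted p = 0.0280), and lost its call when any mouse but RA mouse 2 or 4 was left out (adjusted p up to 0.0865) and from summed counts (adjusted p = 0.130). In CS mice 1 and 2 Arntl was under the level of 3 UMIs. An Arntl UMI was found in 4.91% of AT1 cells under CS and 13.6% under RA, so that the gene passed the 10% filter only through the RA mice, where it is higher, and with no filter it was not called (adjusted p = 0.254). Dbp also had a higher mean in CS mice in AT2 cells (1.58 under CS and 0.741 under RA), EC_capillary_A cells (0.583 under CS and 0.105 under RA) and EC_capillary_B cells (1.41 under CS and 0.272 under RA). It was not called in AT2 cells, and capillary cells were not tested. The hour at which each lung was taken is not given in the sources used here. Its part in these values, or in those of the glucocorticoid genes, the chaperones and Cirbp, was not tested. Cirbp, a cold-inducible RNA-binding protein, had 1.37 ± 0.233 against 0.801 ± 0.105 (SD, n = 4, log2 difference 0.40, adjusted p = 0.0139), and was lost without CS mouse 3 (adjusted p up to 0.0519). Rbm3, the other cold-inducible gene listed, had a log2 difference of -0.01 (adjusted p = 0.898).

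Of 16 immediate-early genes, which answer within minutes to many stimuli and to tissue digestion, 2 were called, both lower in CS mice, against 1.01% of all genes. Btg2, an antiproliferative gene, had 1.04, 1.61, 2.22 and 2.06 in CS mice 1 to 4 and 5.73, 4.02, 4.45 and 4.22 in RA mice 1 to 4 (log2 difference -1.05, SE 0.134, adjusted p = 0.000659). Dusp1, a phosphatase that switches off MAP kinases, had 3.23, 2.74, 3.85 and 3.70 in CS mice 1 to 4 and 9.66, 4.81, 4.87 and 6.23 in RA mice 1 to 4 (log2 difference -0.72, SE 0.163, adjusted p = 0.0307), and lost its call without any 1 of the CS mice or RA mouse 4 (adjusted p up to 0.1001). The best known members did not pass, with log2 differences of -0.36 (adjusted p = 0.428) for Fos, -0.22 (adjusted p = 0.368) for Jun and 0.14 (adjusted p = 0.670) for Egr1. Without RA mouse 1 they were -0.14 for Fos and -0.14 for Jun.

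The lists tied to smoke toxicity and inflammation are short, and with 2.38% of all genes called, nothing is read from 0 or 1 called member. None of 16 NRF2 and antioxidant genes was called, and the median was -0.00300. Txnrd1 (thioredoxin reductase) had -0.00278 (adjusted p = 0.988) and Sod1 (superoxide dismutase) 0.30 (adjusted p = 0.157). The aryl hydrocarbon list of 9 genes holds the receptor through which cells sense smoke hydrocarbons, its partner and their target genes. The 3 that reached the expression filter were the receptor Ahr (0.02, adjusted p = 0.886), the partner Arnt (0.05, adjusted p = 0.761) and the target Tiparp (-0.28, adjusted p = 0.0980), none of them called, while the targets Cyp1a1 and Cyp1b1 were not tested. None of 12 p53 target and cell cycle arrest genes was called (median 0.01), Cdkn1a, which encodes p21, standing at 0.03 (adjusted p = 0.919). None of 5 integrated stress response genes and none of 11 interferon-stimulated genes was called, with medians of 0.02 and -0.01. Of 9 genes of MHC class I, 1 was called, against 2.38% of all genes. Tapbp (tapasin, which loads peptides onto these molecules) had 2.75, 2.703, 2.44 and 2.93 in CS mice 1 to 4 and 1.36, 1.59, 1.64 and 2.004 in RA mice 1 to 4 (log2 difference 0.49, SE 0.0881, adjusted p = 0.00741). None of 8 AT2 genes tested in AT1 cells was called (median -0.10).

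Outside the lists, the largest differences upward among genes whose groups did not overlap were in a mixed set. Mir99ahg, the host transcript of microRNAs miR-99a and let-7c, had 3.20, 2.61, 3.09 and 2.66 in CS mice 1 to 4 and 0.954, 1.55, 1.36 and 1.13 in RA mice 1 to 4 (log2 difference 0.79, SE 0.0937, adjusted p = 0.000527). Ndnf, a secreted neurotrophic factor and one of the most AT1-restricted genes, had 14.9, 11.6, 11.7 and 11.1 in CS mice 1 to 4 and 4.77, 7.54, 6.87 and 8.34 in RA mice 1 to 4 (log2 difference 0.77, SE 0.147, adjusted p = 0.0118), and lost its call without CS mouse 1 (adjusted p up to 0.0509). Nt5e, the surface enzyme CD73 that makes adenosine, had 5.09, 4.74, 4.64 and 5.62 in CS mice 1 to 4 and 2.55, 2.72, 2.72 and 3.29 in RA mice 1 to 4 (log2 difference 0.66, SE 0.0970, adjusted p = 0.00217). Slco2a1, a prostaglandin transporter, rose from 0.410 ± 0.189 to 1.32 ± 0.358 (SD, n = 4, log2 difference 0.72, adjusted p = 0.00241). The actin-binding calponin Cnn3 had 0.70 (adjusted p = 0.000527), phospholipase C epsilon (Plce1) 0.66 (adjusted p = 0.0113), and Chrm3, the muscarinic receptor M3, 0.64 (adjusted p = 0.0236). The call of Chrm3 was lost without CS mouse 1, 2 or 3 (adjusted p up to 0.0798), with 20 cells per mouse (0.22, adjusted p = 0.836) and with no filter (adjusted p = 0.223). With 20 cells per mouse Mir99ahg was also lost (0.50, adjusted p = 0.359).

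The largest differences downward outside the lists were of a similar mixture. Selenbp1, a selenium-binding protein, had 7.16, 7.07, 6.28 and 6.53 in CS mice 1 to 4 and 41.6, 14.1, 12.1 and 13.8 in RA mice 1 to 4. RA mouse 1 was about 3 times above the other RA mice, and without it the log2 difference went from -1.28 (SE 0.266, adjusted p = 0.0196) to -0.89 (adjusted p = 0.000166), while without any 1 CS mouse the call was lost (adjusted p up to 0.0601). Igfbp6, an insulin-like growth factor binding protein, had 9.54, 7.92, 6.85 and 5.59 in CS mice 1 to 4 and 36.9, 19.0, 15.1 and 11.6 in RA mice 1 to 4 (log2 difference -1.25, SE 0.251, adjusted p = 0.0162), and was lost without CS mouse 3 or 4 (adjusted p up to 0.0612). Rgcc, a regulator of the cell cycle that responds to complement, had 16.6, 10.6, 13.9 and 14.5 in CS mice 1 to 4 and 53.7, 27.3, 28.3 and 26.5 in RA mice 1 to 4, with a log2 difference of -1.18 (SE 0.198, adjusted p = 0.00463) and -0.94 without RA mouse 1. Pxdc1 had 7.97, 7.91, 7.77 and 7.72 in CS mice 1 to 4 and 17.5, 14.4, 13.4 and 13.3 in RA mice 1 to 4, with CS mice almost alike (log2 difference -0.81, SE 0.115, adjusted p = 0.00156). The LIM domain protein gene Csrp1 stood at -0.73 (adjusted p = 0.00904) and the kinase Pim3 at -0.71 (adjusted p = 0.00204).

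**Figure D4:**
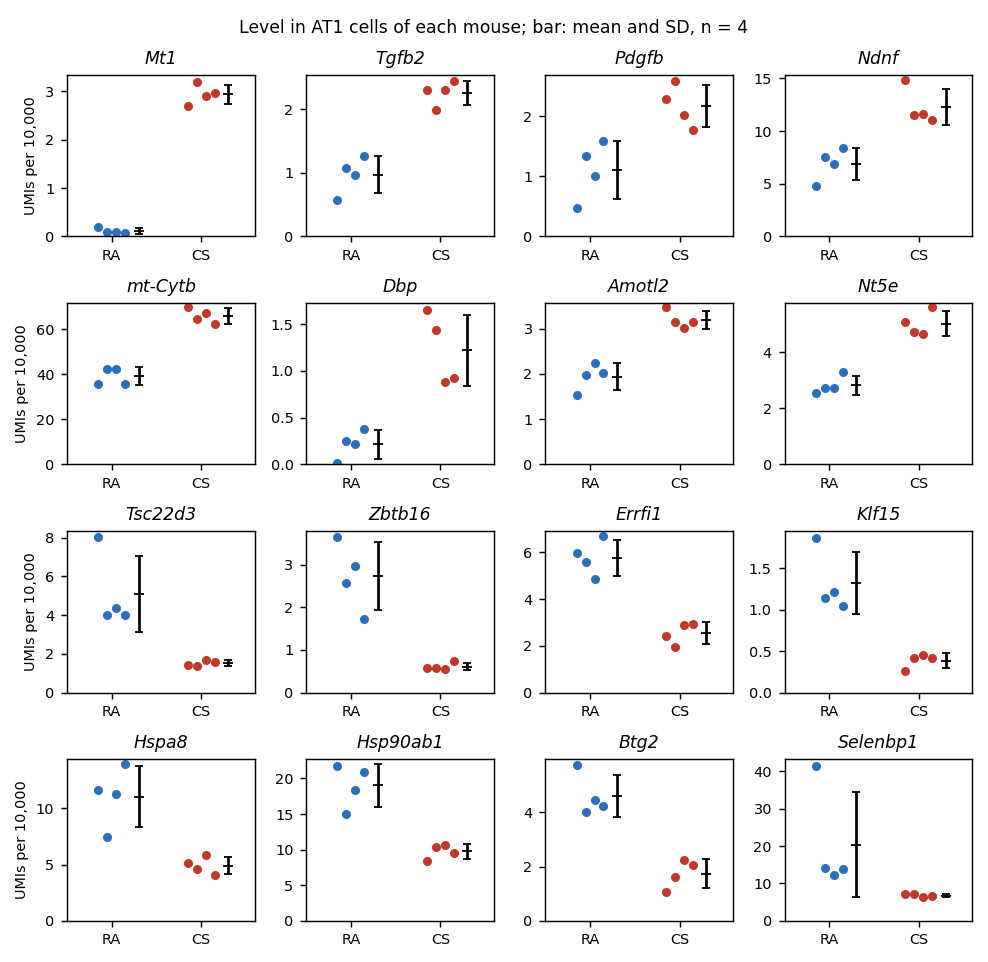
Level in AT1 cells of each mouse (UMIs per 10,000) for 16 genes called between CS and RA mice, with the mean and SD of 4 mice. The points of the groups do not overlap in any panel, and in the panels of Tsc22d3 and Selenbp1 RA mouse 1 lies far above the other RA mice.

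In AT2 cells of the same lungs no gene passed the test. There 9138 genes were tested with limma and 0 were called, with 670 at an unadjusted p under 0.05 where AT1 cells had 1576. The difference itself was tested as the AT1 minus AT2 value of each mouse, compared between CS and RA mice. Of 10201 genes, 91 (0.892%) passed, 58 of them with a higher and 33 with a lower value in CS mice, and 68 of the 213 genes called in AT1 cells were among them. The count of 91 fell to 41 with the lane as a term, to 34 with a pseudocount of 0.1, to 33 to 86 with 1 mouse left out, and to 0 with no filter or with 20 cells per mouse (1933 and 689 at an unadjusted p under 0.05), while a 25% filter gave 153. Of the 213, 159 had the same sign in both cell types. The same share over all genes was not taken, so nothing is read from this count. AT1 and AT2 cells share their mice, and AT2 cells were more numerous (1881 against 975).

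Several of the genes already named passed the test of AT1 against AT2 cells. Tsc22d3 had a log2 difference of -1.23 in AT1 and -0.04 in AT2 cells, and the test of AT1 against AT2 gave -1.19 (SE 0.179, adjusted p = 0.0158). This call was lost without CS mouse 2 or 3 (adjusted p up to 0.0593). For Errfi1 the values were -0.93 and -0.11, with -0.82 (SE 0.0999, adjusted p = 0.00630), and for Btg2 -1.05 and -0.14, with -0.90 (SE 0.123, adjusted p = 0.0113). Tgfb2 differed by 0.74 in AT1 and 0.01 in AT2 cells, which hold hardly any, with 0.72 (SE 0.103, adjusted p = 0.0147). On the mitochondrial genome, mt-Nd2 had 0.61 in AT1 and -0.18 in AT2 cells, with 0.79 (SE 0.0967, adjusted p = 0.00630). With a pseudocount of 0.1 the tests of AT1 against AT2 missed the threshold for Tgfb2 (adjusted p = 0.0536) and mt-Nd2 (adjusted p = 0.0658). Zbtb16 had -0.73 (SE 0.106, adjusted p = 0.0147) and Amotl2 0.57 (SE 0.0888, adjusted p = 0.0169). The chaperone Hsp90ab1 had -0.89 in AT1 and -0.64 in AT2 cells, and its test of the difference gave -0.25 (SE 0.0875, adjusted p = 0.239), which did not pass.

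**Figure D5:**
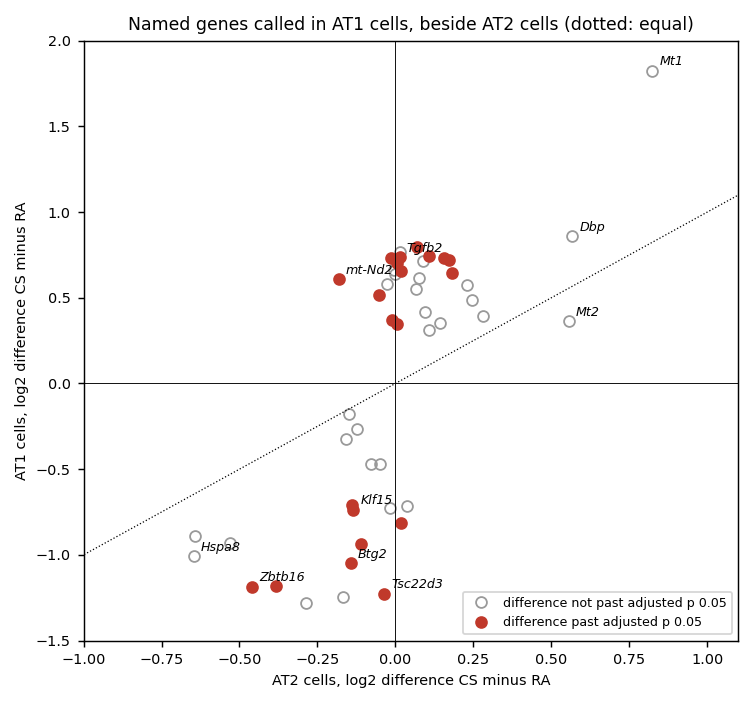
Log2 difference between CS and RA mice in AT1 cells (y axis) and in AT2 cells (x axis) for 49 named genes called in AT1 cells, filled in red where the difference between the cell types passed an adjusted p of 0.05. Of the 49 points 39 lie within 0.25 of 0 on the AT2 axis, while Hspa8 (-0.65), Dbp (0.57) and Mt1 (0.82) are among those away from it. The genes were taken for their difference in AT1 cells, and on this scale genes that AT2 cells hardly hold stay near 0. Nothing is therefore read from the count.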

How the data were processed

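Lungs of 8 Sftpc-CreERT2-mTmG mice, 4 CS and 4 RA, were profiled with 10x 3' chemistry (v3). The authors aligned reads with STAR 2.7.3a (STARsolo, per the labels) to GRCm38.p6 with the reporter sequences added, kept cells by UMI number and share of mitochondrial transcripts, removed free RNA with SoupX, clustered the cells and named the types. The deposited matrix, called normalized, holds estimated counts of UMIs after that removal. Only 1.28% of its values are whole (within 1e-06), and each cell's sum equals its deposited total, so no count model was used. The deposited cell table gives the mouse, the type and the percent of mitochondrial UMIs. Removal of free RNA can lower rare transcripts, whose levels are the least certain.

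Groups were taken from the exposure label and mice from the cell table. Doublets were left out as the authors labelled them (multiplets), as were cell-cycle cells, which left 40074 cells. Counts were scaled to 10000 per cell and averaged over the AT1 cells of a mouse. Log2(mean + 1) was compared with limma 3.58.1 (trend, R 4.3.3) and adjusted by the Benjamini-Hochberg method over all genes found in at least 10% of AT1 cells of either group. A log2 difference understates the change of low genes. The same fit on AT1 minus AT2 values tested the difference between the cell types. For single values, two-sided permutation tests over all assignments of the mice (exact) were used. The fit was tested on simulated data, with changes placed only in the more abundant genes and without lane effects. Nothing about low genes is read from it. Whether the 4 mice of a group shared litters is not recorded per sample. Gene positions are from GENCODE M21 on GRCm38 and promoter windows from RefSeq.

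Named genes were the reporters and 3 markers, list members (called, or the most abundant), the 15 largest called differences in each direction without overlap, and the 5 in each direction for AT1 against AT2. Genes named outside this rule (Fkbp5, Nr3c1, Per1, Per2, Nr1d2, Tef, Cry2, Rbm3, Cebpd, Hspa1a, Hspa1b, Dnajb1, Chordc1, mt-Co2, mt-Co3, mt-Nd6, mt-Atp6, mt-Atp8, Tgfbr1, Krt8, Fos, Jun, Egr1, Txnrd1, Sod1 and Cdkn1a) are list members chosen after their values were seen. AT1 cells, the gene lists and the tests were chosen with earlier results of these data known. Depth per mouse ran from about 815869 to 1697680 UMIs over all AT1 cells. Alternatives changed the pseudocount, the expression filter, the scaling, the cells kept, the covariates, the mice and the test. The term for sex as read from transcripts was added after seeing the data.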

Additional observations from a re-analysis of the deposited data

Results flagged for a closer look

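With 358 groups of 4 mice looked at for 1 mouse far from the other 3, 23 were picked out, and chance picks out about 1 in 20. RA mouse 1 accounted for 13 of them. Its AT1 cells held 19.7 Rtkn2 against 34.96 to 36.2, 41.6 Selenbp1 against 12.1 to 14.1, 53.7 Rgcc against 26.5 to 28.3, 34.1 Cyp4b1 against 14.9 to 16.1, 8.02 Tsc22d3 against 3.99 to 4.39, 11.3 Tspan8 against 10.26 to 10.28, 3.89 Ptprf against 4.67 to 4.78, 2.40 Hspg2 against 3.63 to 3.67, 5.32 Atp1b1 against 0.141 to 0.629, 3.69 Cdkn2b against 1.89 to 2.18, 1.42 Sgk1 against 0.696 to 0.793, 1.24 Fstl3 against 0.837 to 0.890 and 0.0615 Bhlhe41 against 0.130 to 0.139. RA mouse 4 had a median of 17293 UMIs per AT1 cell against 9708 to 10923 in the other RA mice, 0.778 Tead4 against 0.589 to 0.595 and 9.32 Ccn1 against 6.75 to 6.91, and RA mouse 3 had 1.79 Tiparp against 1.22 to 1.28. Among CS mice, CS mouse 1 had 34.6 Vegfa against 27.8 to 28.2, 14.9 Ndnf against 11.1 to 11.7, 6.64 Hsp90b1 against 5.38 to 5.56 and 5.47 Cdh1 against 4.82 to 4.84, CS mouse 2 had 7.25 Ehd2 against 6.37 to 6.43, and CS mouse 4 had 1.37 Foxa2 against 1.56 to 1.57. Levels are UMIs per 10,000. For Tspan8, Fstl3 and Cdkn2b the log2 differences were 0.10, 0.01 and -0.12 with all mice and 0.14, 0.07 and 0.04 without RA mouse 1.

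The 10 genes below differed between AT1 and AT2 cells in their CS minus RA difference, by limma on the AT1 minus AT2 values. They were taken for the size of this difference in each direction. Other named genes, among them Zbtb16, Amotl2 and Scnn1a, also passed this test. The difference of log2 differences was -1.19 for Tsc22d3, -0.90 for Btg2, -0.83 for Pxdc1, -0.82 for Errfi1 and -0.80 for Rgcc, each lower in AT1 cells. It was 0.79 for mt-Nd2, 0.75 for mt-Nd4, 0.73 for Mir99ahg and 0.72 for Tgfb2, each higher. For Auts2 it was 0.71, where AT1 cells held 0.0476 under CS and 0.0261 under RA, near the level of 3 UMIs (0.0177 to 0.0368). The Auts2 difference lay in AT2 cells, with 0.456 under CS and 1.38 under RA. The Pxdc1 call was lost when any mouse but RA mouse 1 was left out (adjusted p up to 0.147), and the Auts2 call without any 1 of the CS mice or RA mouse 2 or 4 (adjusted p up to 0.0895). With the lane as a term both missed the threshold (Pxdc1 adjusted p = 0.166, Auts2 adjusted p = 0.0886). Pxdc1 also missed it with a pseudocount of 0.1, from summed counts, with labelled sex as a term, in cells with Ager and without the 10% of cells with most UMIs (adjusted p from 0.0505 to 0.127). With a pseudocount of 0.1 it was missed as well by Tgfb2 (adjusted p = 0.0536), mt-Nd2 (adjusted p = 0.0658), mt-Nd4 (adjusted p = 0.0642) and Rgcc (adjusted p = 0.0618). None of the 10 passed with no filter on genes or with 20 cells per mouse.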

How the results depend on the processing

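The count of genes called in AT1 cells (213) stayed within 1.5 times under 11 alternatives that kept all mice. It moved to 29 with no filter on genes, to 22 with 20 cells per mouse and to 574 (282 higher, 292 lower) by a Wilcoxon test with cells as the units (Bonferroni adjusted), in which the mice play no part. Leaving out 1 mouse gave 100 to 205. Quantile normalization gave 109 of 202 genes higher, against 123 of 213. The count for AT1 against AT2 (91) moved to 34 with a pseudocount of 0.1, to 153 with a 25% filter, to 0 with no filter or with 20 cells per mouse (limma, 1933 and 689 at an unadjusted p under 0.05), to 41 with the lane as a term, and lay between 33 and 86 with 1 mouse left out. The number of list members called was 36 in all 3 scalings. The ratio of CS to RA for eGFP per AT1 cell (1.07) was 0.856 from summed counts, 0.991 without the cells with most Sftpc, 1.72 as the thinned share of cells, and 0.838 to 2.61 with 1 mouse left out. For tdTomato (1.09) it was 0.930 from summed counts, 1.49 as the thinned share of cells and 1.01 to 1.18 with 1 mouse left out. AT1 shares and AT1 cells per 100 AT2 cells kept direction and missed the threshold under every alternative, with ratios from 1.09 to 1.35 and from 1.25 to 1.76. Of 49 called genes taken by the naming rule, 13 were called in every alternative limma fit and 30 with each mouse left out, and none changed direction in these fits. The Wilcoxon test was not followed for single genes. The causes of these changes were not tested. The labels number no animals across the groups, and the only pairing is by lane, with 1 CS and 1 RA mouse each, which the fit with the lane as a term uses. The number of AT1 cells per mouse, 50 to 173, limits what low transcripts can show.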
